A study of Homo sapiens with 7 samples.

Results

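The genes described here are the 246 protein-coding genes of human chromosome 19 whose symbol is ZNF followed by digits and optional letters in GENCODE release 44. They were taken by symbol and position alone, out of 1476 protein-coding genes of that chromosome and 20033 on chromosomes 1 to 22, X and Y, and the other 1230 genes of chromosome 19 served for comparison. SW1990, an established human pancreatic cancer cell line, had received an shRNA that was either the negative control (NC) or directed at KMT2D (KMT2D-KD). ChIP-seq had been done for monomethylated lysine 4 of histone H3 (H3K4me1), for the methyltransferase KMT2D and for the transcription factor EBF2, with 1 library per target and condition and 1 input library whose condition was not labelled. The study asked which genomic regions carry H3K4me1 that depends on KMT2D. Each ChIP library was deposited as a list of intervals called against the SW1990 input, in coordinates of hg38. No expression values are among these lists, so the depth of the knockdown was not checked here, and with 1 library per condition each difference is between 2 libraries and has no replicate check.

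Most genes of this family encode C2H2 zinc finger proteins, in which a row of short finger modules reads DNA sequence. Many also carry an N-terminal KRAB domain, which binds the corepressor TRIM28. TRIM28 in turn brings in the histone methyltransferase SETDB1, and many of the proteins silence transposable elements in this way. The genes arose by tandem duplication and stand in long runs on chromosome 19, with short first exons and 1 large last exon that encodes the fingers. H3K4me1 is found at enhancers and on the flanks of active promoters, and KMT2D is a main writer of it at enhancers. The translated canonical transcripts of the 246 genes held a median of 12 C2H2 finger matches (range 1 to 36), and 183 of them held 10 or more. The members were longer than the other genes of the chromosome (median 25901.5 against 13908.5 bases) and had a lower GC content in the 1 kb on either side of the 5′ end (median 52.1% against 58.2%). Of the 50-base words in the 10 kb around their 5′ ends, a median of 92.5% occurred once in the genome, against 93.0% for the other genes.

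Sequences of 3 members are shown first, since H3K4me1 at these genes lay mostly beside the start and not on it. For ZNF91, ZNF100 and ZNF460 the 250 bases before the RefSeq start come first. They are followed by 200 bases around the summit of the strongest KMT2D-KD interval within 5 kb, and for ZNF91 of the strongest NC interval too. ZNF100 and ZNF460 also had NC intervals (strongest fold 4.04 and 4.21), whose sequences are not printed. ZNF91, a KRAB protein known to repress SVA retrotransposons, and ZNF100 belong to the run nearest the centromere, and ZNF460 lies near the end of the long arm. Letters run 5′ to 3′ on the strand of the gene in hg38 coordinates, with the promoters from RefSeq, and every CG dinucleotide is in capitals.
ZNF91, 250 bases before the start (chr19:23395472-23395721, minus strand): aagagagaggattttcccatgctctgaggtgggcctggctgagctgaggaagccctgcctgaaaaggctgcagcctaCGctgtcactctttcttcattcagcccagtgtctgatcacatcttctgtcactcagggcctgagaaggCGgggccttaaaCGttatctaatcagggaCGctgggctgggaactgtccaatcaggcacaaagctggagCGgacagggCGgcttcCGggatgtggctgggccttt
ZNF91, NC summit (chr19:23391477-23391676, minus strand): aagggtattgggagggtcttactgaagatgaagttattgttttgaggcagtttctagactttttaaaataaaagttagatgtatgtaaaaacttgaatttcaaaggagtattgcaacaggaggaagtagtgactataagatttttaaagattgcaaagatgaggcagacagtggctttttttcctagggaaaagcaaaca
ZNF91, KMT2D-KD summit (chr19:23393209-23393408, minus strand): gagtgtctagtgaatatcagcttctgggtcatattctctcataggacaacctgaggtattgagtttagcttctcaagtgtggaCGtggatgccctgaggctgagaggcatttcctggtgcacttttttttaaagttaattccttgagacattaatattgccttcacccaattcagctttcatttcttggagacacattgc
ZNF100, 250 bases before the start (chr19:21767580-21767829, minus strand): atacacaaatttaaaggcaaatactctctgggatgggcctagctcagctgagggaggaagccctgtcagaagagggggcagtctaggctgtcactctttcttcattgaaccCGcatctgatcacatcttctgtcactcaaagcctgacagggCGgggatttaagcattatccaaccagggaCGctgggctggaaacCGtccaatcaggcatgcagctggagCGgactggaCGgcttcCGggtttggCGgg
ZNF100, KMT2D-KD summit (chr19:21765298-21765497, minus strand): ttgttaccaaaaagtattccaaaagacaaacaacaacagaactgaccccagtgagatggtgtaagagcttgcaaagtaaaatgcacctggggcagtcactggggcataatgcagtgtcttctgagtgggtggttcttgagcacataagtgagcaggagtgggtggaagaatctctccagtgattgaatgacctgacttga
ZNF460, 250 bases before the start (chr19:57279732-57279981, plus strand): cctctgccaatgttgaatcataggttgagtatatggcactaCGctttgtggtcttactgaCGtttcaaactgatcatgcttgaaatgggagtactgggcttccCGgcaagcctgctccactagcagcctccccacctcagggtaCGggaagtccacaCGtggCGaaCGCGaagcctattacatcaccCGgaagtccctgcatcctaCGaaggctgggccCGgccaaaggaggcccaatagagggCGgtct
ZNF460, KMT2D-KD summit (chr19:57282124-57282323, plus strand): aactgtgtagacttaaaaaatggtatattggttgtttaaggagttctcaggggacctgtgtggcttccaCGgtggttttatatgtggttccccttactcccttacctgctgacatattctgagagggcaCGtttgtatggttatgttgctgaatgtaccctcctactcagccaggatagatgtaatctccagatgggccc

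The promoter of ZNF91 held 7 CG dinucleotides in 250 bases, that of ZNF100 held 8 and that of ZNF460 held 12. Around the ZNF91 summits there were 0 in NC and 1 in KMT2D-KD in 200 bases. Around the ZNF100 summits there were 1 in NC and 0 in KMT2D-KD, and around the ZNF460 summits 2 in each. The same contrast held for the whole family: the 300-base RefSeq promoters (250 bases before to 50 after the start, build GRCh38.p14, found for 216 of 246 members) had a median of 6.67 CG per 100 bases, and the 200-base summit windows had a median of 1.0 in either list. The other genes of chromosome 19 showed it as well, with medians of 7.0 in promoters, 1.0 at NC summits and 1.5 at KMT2D-KD summits. The promoters of ZNF91 and ZNF100 were alike, with 201 identical bases over an alignment of 262 columns (76.7%), against 52.3% for ZNF91 and ZNF460 and 52.8% for ZNF100 and ZNF460.

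Fewer of the zinc finger genes than of other chromosome 19 genes had H3K4me1 within 5 kb of the start in either library. In both groups more genes had it in KMT2D-KD than in NC. An interval lay within 5 kb of the 5′ end of 35 of 246 members in NC (14.2%, exact Clopper-Pearson 95% interval 10.1 to 19.2) and of 63 in KMT2D-KD (25.6%, 20.3 to 31.5). Of the 73 members with an interval, 25 had one in both lists, 10 in NC alone and 38 in KMT2D-KD alone, while 173 members had none in either. The KMT2D-KD number was thus above the NC number by 0.85 on the log2 scale (95% interval 0.23 to 1.49). For the other 1230 genes the numbers were 269 (21.9%, 19.6 to 24.3) and 505 (41.1%, 38.3 to 43.9), a log2 ratio of 0.91 (0.69 to 1.13). The intervals cover counting error only, and genes that are neighbours can share an interval and are not replicates.

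Members with an interval in KMT2D-KD alone made up 15.4% of the family (11.2 to 20.6), against 21.0% of all protein-coding genes of chromosome 19 and 16.2% of those of the genome. Members with an interval in NC alone made up 4.07% (1.97 to 7.35), against 3.12% on the chromosome and 3.51% in the genome. The first share was thus below that of the chromosome and close to that of the genome, and the second was close to both. Of the 35 members listed in NC, 71.4% (53.7 to 85.4) were listed in KMT2D-KD too, and of the 269 other genes 86.6% (82.0 to 90.4) were. Of the 34 other genes listed in NC that lie inside the runs of zinc finger genes, 67.6% (49.5 to 82.6) were, so a lower share was not particular to the family.

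The size of the difference between the lists changed with how the intervals were chosen. The KMT2D-KD list was the longer (92135 intervals against 64843 in all, and 2218 against 1075 on chromosome 19). The lowest background recovered from each list, over the width of its narrowest interval, was 9.29 fragments per kb against 9.89 in NC. This is a background rate and not a library depth, and the part of depth in the longer list was not tested. When the KMT2D-KD list was cut to its 64843 strongest intervals by q-value, 35 members had an interval in each list (log2 ratio 0.00, interval -0.72 to 0.72), whereas the other genes kept a higher number in KMT2D-KD (377 against 269, log2 ratio 0.49). When both lists were instead held to a −log10 q of at least 5, the member ratio moved the other way, to 2 genes in NC and 13 in KMT2D-KD (log2 ratio 2.70, 0.56 to 5.89), and that of the other genes to 65 and 173 (1.41).

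The share of zinc finger genes with an interval within 5 kb was 0.651 times that of the other genes in NC (Katz 95% interval 0.470 to 0.900) and 0.624 times in KMT2D-KD (0.499 to 0.780). The gap was smaller against genes in the same places. The 195 other genes that lie inside the runs of zinc finger genes had an interval in 17.4% of cases in NC (12.4 to 23.5) and 31.3% in KMT2D-KD (24.8 to 38.3), and against them the NC ratio was 0.816 (0.529 to 1.26) and the KMT2D-KD ratio 0.819 (0.608 to 1.10). Both of these ranges include 1, so a difference between the zinc finger genes and their direct neighbours was not detectable at this number of genes.

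**Figure D1:**
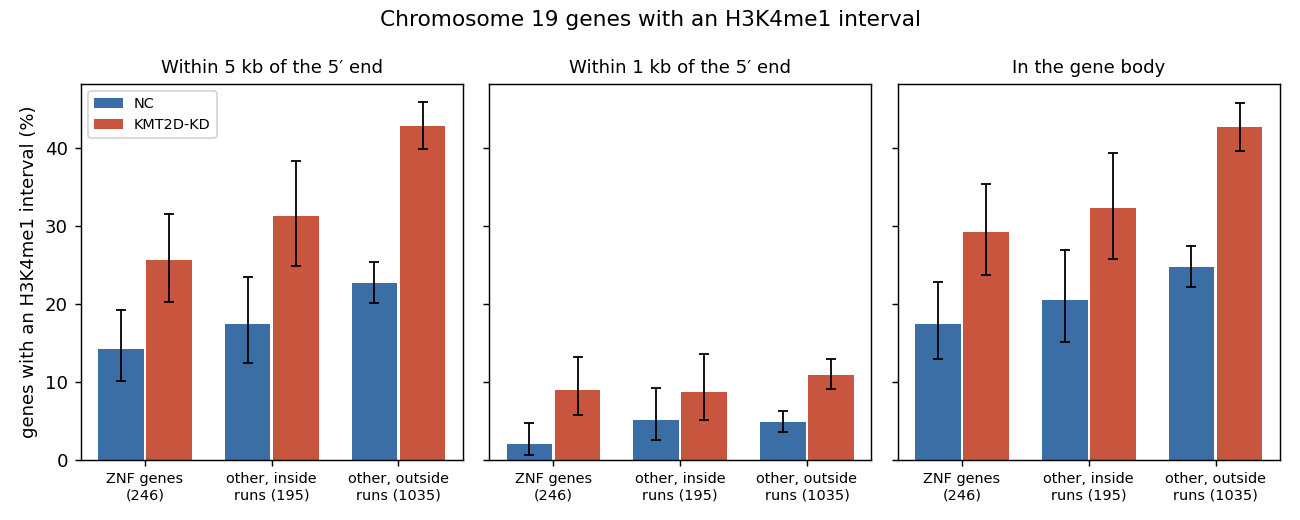
Share of chromosome 19 genes (%, y axis) with an H3K4me1 interval within 5 kb of the 5′ end, within 1 kb of it, or in the gene body, for the 246 ZNF genes, 195 other genes inside the runs of ZNF genes and 1035 other genes outside them. Bars are 1 library each (blue NC, red KMT2D-KD) with exact 95% binomial intervals for counting error: within 5 kb the ZNF bars stand at 14.2% and 25.6%, below the genes outside the runs at 22.7% and 42.9%.

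The intervals at zinc finger genes were close in size to those at the other genes, and fewer of them were strong. The 5 kb windows held 42 distinct intervals in NC and 79 in KMT2D-KD, with a median fold enrichment over background at the summit of 3.86 and 3.79, a median width of 304 and 312 bases, and a median of 11 and 10 fragments. At the other genes the medians were 4.04 and 4.17 for the fold, 320 and 344 bases for the width, and 12 and 11 fragments. The −log10 q reached 5 in 2 of 42 and 14 of 79 (17.7%), against 67 of 314 (21.3%) and 192 of 719 (26.7%) at the other genes. It was below 3 in 25 of 42 and 38 of 79, so many calls stood close to the caller's limit. Intervals covered 0.643% of the 10 kb windows of the members in NC and 1.37% in KMT2D-KD, against 1.12% and 3.12% for the other genes. Of the 42 NC intervals at members 52.4% (36.4 to 68.0) overlapped one of the KMT2D-KD list, against 72.0% (66.7 to 76.9) at the other genes.

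H3K4me1 at the zinc finger genes lay mainly on the transcribed side of the start: 32 of 42 intervals in NC and 60 of 79 in KMT2D-KD lay downstream of the 5′ end. In the second kb downstream, the NC share of members with an interval was 8.13% and the KMT2D-KD share 14.2%, beside 5.93% and 13.7% for the other genes. In the 5 kb upstream, members had one in 4.47% (2.25 to 7.86) and 7.72% (4.71 to 11.8), and the other genes in 11.3% (9.58 to 13.2) and 23.2% (20.8 to 25.6). The upstream ranges of the 2 groups do not overlap in either library. This contrast was not computed against the other genes inside the runs, so it cannot be told apart from location. Downstream, members had an interval within 5 kb in 11.0% and 19.9% of cases, against 13.0% and 27.2% for the other genes.

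In the first kb downstream, 1 member had an interval in NC (0.407%, 0.0103 to 2.24) and 15 in KMT2D-KD (6.10%, 3.45 to 9.86), while the other genes went from 2.03% to 4.55%. Within 1 kb on either side of the 5′ end the member numbers were 5 and 22, a log2 ratio of 2.14 (0.70 to 3.89), and the numbers of other genes were 60 and 130, a log2 ratio of 1.12 (0.66 to 1.58). The 18 members with such an interval in KMT2D-KD alone were 7.32% of the family, against a background of 7.45% on the chromosome. ZNF302, ZNF526, ZNF575 and ZNF83 had one in both libraries and ZNF507 in NC alone, all chosen for naming after their values were seen.

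**Figure D2:**
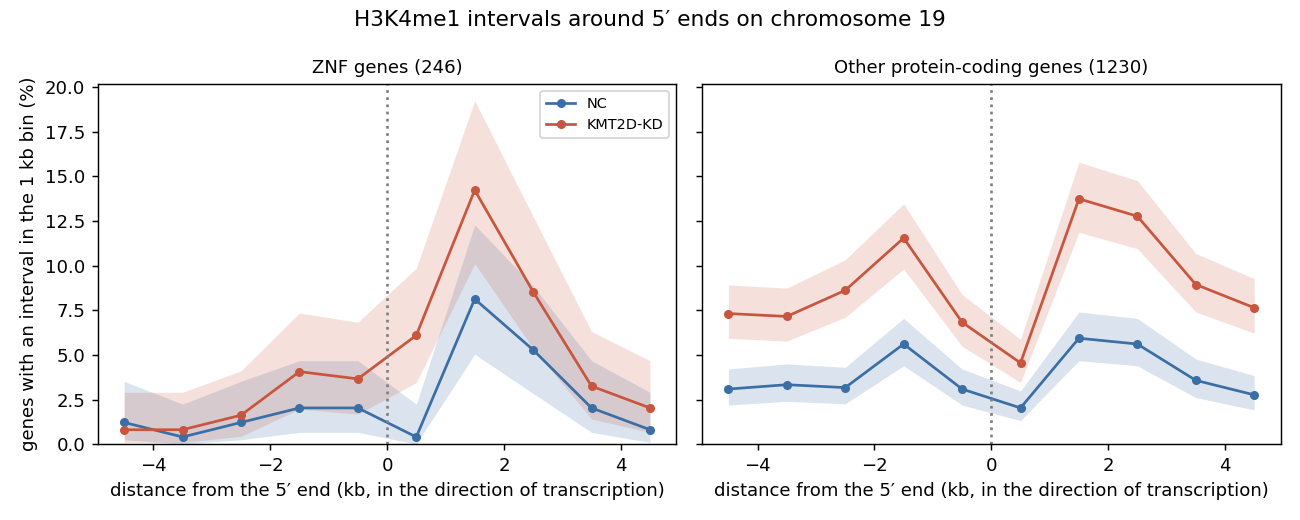
Share of genes (%, y axis) with an H3K4me1 interval in each 1 kb bin from 5 kb before to 5 kb after the 5′ end (x axis, kb in the direction of transcription), for 246 ZNF genes (left) and 1230 other chromosome 19 genes (right). Lines are 1 library each (blue NC, red KMT2D-KD) and shading is the exact 95% binomial interval. ZNF genes peak in the second kb downstream at 8.13% and 14.2% and are low upstream, where the other genes have a further shoulder.

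Among members whose interval had the highest −log10 q in NC were ZNF575, ZNF91, ZNF432, ZNF507 and ZNF841, and in KMT2D-KD ZNF430, ZNF575, ZNF358, ZNF460 and ZNF567. ZNF575 held most covered bases in both libraries, 2112 in NC and 3831 in KMT2D-KD out of a 10 kb window. Its NC intervals lay in an intron of the neighbouring gene ETHE1, a mitochondrial sulfur dioxygenase gene (fold 5.27 and 4.04), and in its own intron (chr19:43528486-43528732, fold 4.91). In KMT2D-KD the ETHE1 intron held 1 interval of 2114 bases (fold 5.13) and the ZNF575 intron held 3, the strongest at chr19:43527770-43528729 with fold 6.83. The ETHE1 intervals cannot be assigned to ZNF575 by position alone, and the GENCODE record begins 7691 bases before the RefSeq start. The intervals in the ZNF575 intron lie in 1 of 5 annotated transcripts, outside the canonical one and before the RefSeq start, in both libraries.

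ZNF430 had the strongest interval of any member window, in KMT2D-KD at chr19:21022463-21023655 with fold 7.21, −log10 q 10.2 and 18 fragments. The NC interval in the same place (chr19:21022721-21023698) had fold 3.85, −log10 q 2.85 and 10 fragments. The same stretch was thus listed in both libraries, with a lower value in NC. ZNF91 had 3 intervals and 972 covered bases in NC, the strongest with fold 5.27, and 1 interval and 958 bases in KMT2D-KD with fold 5.84, so its coverage differed by 14 bases. The single KMT2D-KD interval overlapped 2 of the 3 NC ones.

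ZNF432 and ZNF841 begin at almost the same base in GENCODE and shared 1 NC interval, 4079 bases before the ZNF841 start between genes. It had fold 4.91 and 13 fragments and no counterpart in KMT2D-KD. The RefSeq start of ZNF432 lies 46900 bases away from the GENCODE one, so by RefSeq this interval would not count for ZNF432. The 200 bases around its summit held 2 copies of TGANTCA, the core of AP-1 (JUN and FOS) sites, and are printed with these copies in capitals on the minus strand.
ZNF432 and ZNF841, NC summit (chr19:52099833-52100032, minus strand): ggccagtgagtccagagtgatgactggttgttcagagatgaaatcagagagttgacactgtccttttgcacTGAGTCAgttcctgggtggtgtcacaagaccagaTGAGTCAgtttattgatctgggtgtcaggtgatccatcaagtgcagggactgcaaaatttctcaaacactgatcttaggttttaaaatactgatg

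TGANTCA was searched on both strands of each 200-base summit window. It was in 3 of 42 windows at members in NC (7.14%, 1.50 to 19.5) and 3 of 79 in KMT2D-KD (3.80%, 0.79 to 10.7), against 2.38% and 1.90% of windows 2 kb to either side. At the other genes it was in 7.01% and 5.84% of summit windows, and it was in 6.48% of member promoters of 300 bases. CCCNNGGG, the core of EBF sites, was in 2 of 42 (4.76%) and 5 of 79 (6.33%) summit windows at members and in 6.05% and 5.29% of those at other genes. In windows 2 kb to either side it was in 1.19% (0.03 to 6.46) and 5.06% (2.21 to 9.73) at members and in 66 of 628 (8.22% to 13.2%) and 144 of 1438 (8.51% to 11.7%) at other genes. None of the summit shares at members can be told from those at other genes within their counting intervals. On the whole chromosome 83 of 1075 NC intervals and 133 of 2218 KMT2D-KD intervals held TGANTCA.

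**Figure D3:**
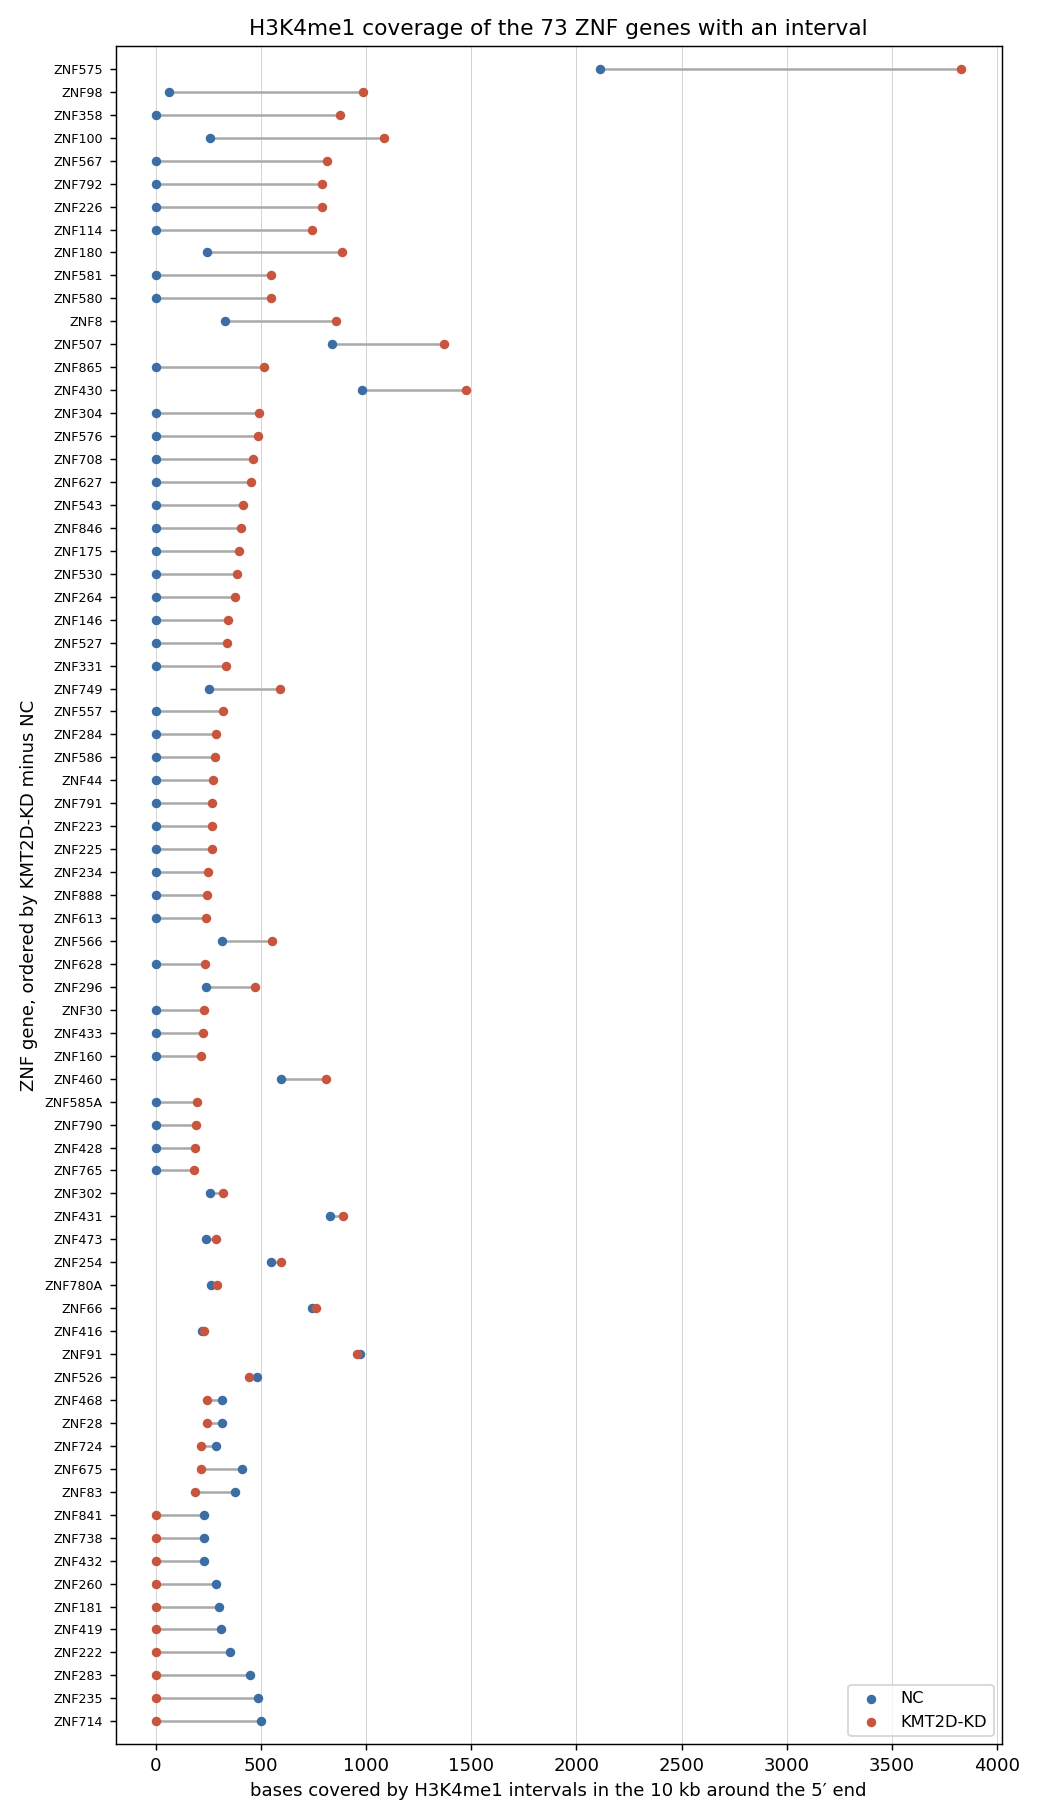
Bases covered by H3K4me1 intervals in the 10 kb around the 5′ end (x axis) for each of the 73 ZNF genes with an interval in either library (y axis, ordered by KMT2D-KD minus NC), with blue points for NC, red for KMT2D-KD and a grey line between them. Coverage was higher in KMT2D-KD for 56 members and lower for 17, ZNF575 stands far to the right at 2112 and 3831, and the other members lie far to the left of it.

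The 38 members with an interval in KMT2D-KD alone covered 180 to 874 bases (median 336.5), and their strongest intervals had folds of 2.71 to 6.07 (median 3.79). The 25 members with intervals in both covered a median of 315 bases in NC and 588 in KMT2D-KD, more in KMT2D-KD for 18 and fewer for 7. Coverage over all members was higher in KMT2D-KD for 56 and lower for 17, and among the other genes higher for 465 and lower for 76.

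The 6 largest increases in covered bases were at ZNF575, ZNF98, ZNF358, ZNF100, ZNF567 and ZNF226. ZNF98 went from 62 to 987 bases: an interval at the edge of the window was in both lists, and a further one of 874 bases at chr19:22528091-22528964 (fold 3.59, 13 fragments) overlapped none of the NC list. ZNF358 went from 0 to 874 bases, in 1 interval at chr19:7512127-7513000 that lies 2292 bases before its start, in an intron of ENSG00000267952 (fold 6.07, 15 fragments). ZNF100 went from 256 to 1083 bases in its own intron (fold 4.04 and 5.11). ZNF567 went from 0 to 816 bases at chr19:36685806-36686621 (fold 5.84), 991 bases before the GENCODE start, which lies 20678 bases into the RefSeq gene. ZNF226 went from 0 to 789 bases in 2 intervals on both sides of its start, with folds of 4.17 and 3.39. Of these 6, ZNF358, ZNF567 and ZNF226 had no NC interval, and the other 3 had one in both libraries.
ZNF358, KMT2D-KD summit, every CG in capitals (chr19:7512639-7512838, plus strand): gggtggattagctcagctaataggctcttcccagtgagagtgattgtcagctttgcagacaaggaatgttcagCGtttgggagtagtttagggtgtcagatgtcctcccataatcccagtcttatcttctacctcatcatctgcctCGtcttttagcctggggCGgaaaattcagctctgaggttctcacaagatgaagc

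The 6 largest decreases were at ZNF714, ZNF235, ZNF283, ZNF222, ZNF419 and ZNF181, each with 1 NC interval and none in KMT2D-KD. ZNF714 went from 498 bases to 0 (intron, fold 4.56, 12 fragments), and both further NC intervals in its body were absent from the KMT2D-KD list too. ZNF235 went from 484 bases to 0 with fold 4.04, and ZNF222 from 352 to 0 with fold 4.28. ZNF283 had 447 bases in an intron of LYPD5 at fold 2.69, with a −log10 q of 1.41. ZNF419 had 309 bases at fold 3.86 and ZNF181 had 299 at fold 3.18. All 6 NC intervals rested on 10 to 13 fragments, against a lowest value of 8 and a median of 12 in the NC list. ZNF235, ZNF283 and ZNF222 stand in the same run, where 7 other members had an interval in KMT2D-KD alone.

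Of 20 members listed for their known roles, 15 had no interval within 5 kb in either library, against 173 of all 246, so these 20 were close to the family as a whole. They include ZNF93, which represses a group of LINE-1 elements, ZNF274, which brings SETDB1 to the finger exons of zinc finger genes, and ZNF350, known as the BRCA1 partner ZBRK1. ZNF224, a repressor of the aldolase A gene, ZNF568, ZNF420, ZNF382, ZNF649, ZNF43 and ZNF90 were also among them. So were ZNF154, ZNF582, ZNF671 and ZNF132, whose promoters are methylated in many carcinomas, and ZNF536, a gene of the nervous system. ZNF91 and ZNF507 had an interval in both libraries, ZNF432 in NC alone, and ZNF331 and ZNF175 in KMT2D-KD alone. ZNF507 went from 838 to 1368 covered bases, with a best fold of 4.91 in NC and 5.11 in KMT2D-KD. ZNF175 had 397 bases in an intron at fold 4.17, and ZNF331, an imprinted gene, had 335 bases at fold 3.04 on 7 fragments, the lowest number of fragments in the KMT2D-KD list.

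The 246 members fall into 16 runs when a new run starts at each gap of over 1 Mb, and 235 of them stand in the 9 runs of 5 or more. In the 3 runs nearest the end of the short arm, ZNF554 to ZNF77 (5 members), ZNF557 to ZNF846 (15) and ZNF653 to ZNF791 (25), no member had an interval within 5 kb in NC, and 0, 3 and 4 had one in KMT2D-KD. With 0 of 25 genes the exact upper limit is 13.7%. On the long arm the runs ZNF302 to ZNF792 (2 and 3 of 5), ZNF565 to ZNF573 (2 and 6 of 26), ZNF575 to ZNF296 (6 and 10 of 24), ZNF175 to ZNF331 (5 and 9 of 39) and ZNF628 to ZNF446 (5 and 13 of 59) all had more members with an interval in KMT2D-KD. The 11 members in smaller runs had 4 and 5.

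The run ZNF101 to ZNF254 (chr19:19668796-24129968, 37 members, the last of the short arm before the centromere) had nearly equal numbers in the 2 libraries. It had 11 members with an interval in NC (29.7%, 15.9 to 47.0) and 10 in KMT2D-KD (27.0%, 13.8 to 44.1), 9 of them in both. Those 9 were ZNF66, ZNF430, ZNF431, ZNF100, ZNF98, ZNF724, ZNF91, ZNF675 and ZNF254, named here after their values were seen. Only ZNF708 was listed in KMT2D-KD alone (2.70% of the run), and ZNF714 and ZNF738 in NC alone. The windows of the run held 15 intervals in each library, none of them within 1 kb of a 5′ end. Its gene bodies held 33 distinct intervals in NC and 38 in KMT2D-KD (log2 ratio 0.20, -0.51 to 0.92). The log2 ratio of the number of genes was -0.14 (-1.53 to 1.24) in this run and 1.14 (0.42 to 1.90) over the other 209 members, which went from 24 to 53. The 2 ranges overlap, the run was singled out after its values were seen, and no test of the difference was made.

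**Figure D4:**
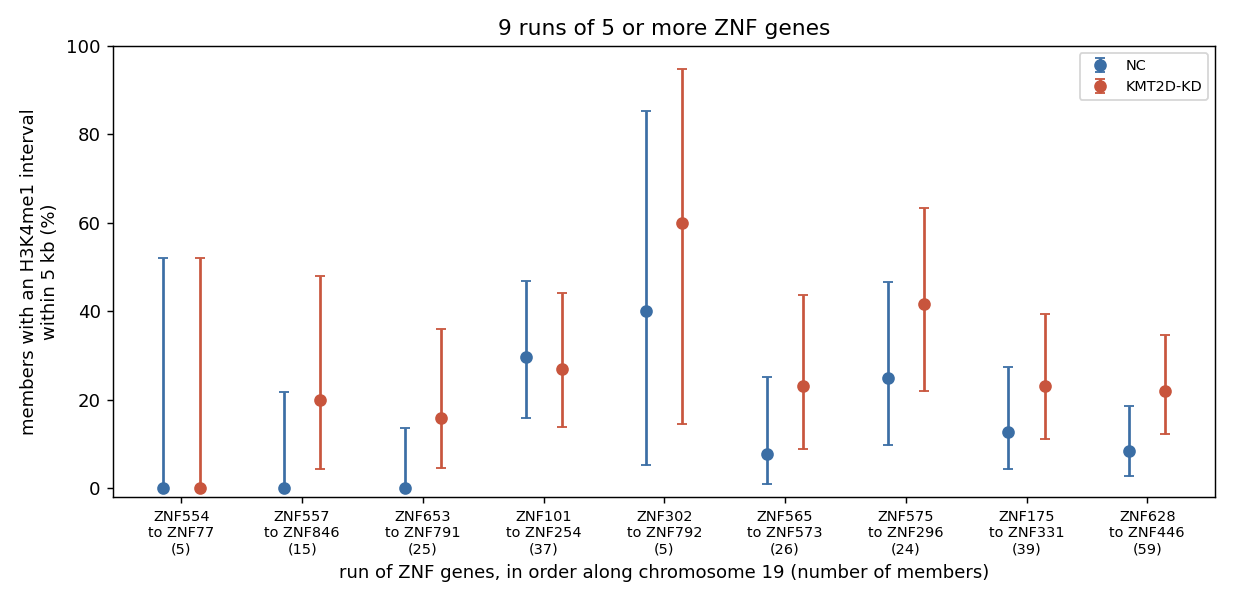
Share of members with an H3K4me1 interval within 5 kb of the 5′ end (%, y axis) in the 9 runs of 5 or more ZNF genes in their order along chromosome 19 (x axis, members in brackets), as points with exact 95% binomial intervals, blue for NC and red for KMT2D-KD. The KMT2D-KD point is higher in 7 runs, both are at 0 in ZNF554 to ZNF77, and in ZNF101 to ZNF254 it is 27.0% against 29.7% in NC.

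The family was also split at the median of its own features, and the split with the widest contrast is given first. Splits by GC content, CG content, largest coding exon and protein length were made too. Their values are not given, and the ranges of their log2 ratios overlap in each case. Members with more than 2 other 5′ ends within 50 kb went from 8 to 28 of 96 (log2 ratio 1.81, 0.64 to 3.15), and those with 2 or fewer from 27 to 35 of 150 (0.37, -0.39 to 1.15). Their ranges overlap. The run ZNF101 to ZNF254, with a median of 0 other 5′ ends within 50 kb, falls mostly among those with 2 or fewer. This split and that run were not separated. By gene length, members above the median went from 20 to 27 of 123 (log2 ratio 0.43, -0.46 to 1.34). Those at or below it went from 15 to 36 of 123 (1.26, 0.36 to 2.24), and these ranges overlap as well. Members above the median share of 50-base words that occur once went from 23 to 38 of 123, and the others from 12 to 25 of 123. The ranges of these shares overlap in NC (12.2% to 26.7% against 5.14% to 16.4%) and in KMT2D-KD (22.9% to 39.9% against 13.6% to 28.5%). Any part of read placement in the lower numbers at less unique windows was not tested. The number of fingers made little difference, with 16 and 30 of 121 members above the median of 12 and 19 and 33 of 125 at or below it. Where no other protein-coding 5′ end shared the 5 kb window the members went from 21 to 47 of 189 (log2 ratio 1.16, 0.39 to 1.98), and where one did they went from 14 to 16 of 57 (0.19, -0.94 to 1.34). These 2 ranges overlap, and the difference was not tested.

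Gene bodies showed the same order of numbers. The NC library had an interval in the body of 43 members and KMT2D-KD in that of 72, and the 40 members with one in KMT2D-KD alone were 16.3% of the family (11.9 to 21.5) against a background of 18.3% on the chromosome. Summed over members there were 76 and 131 intervals, or 0.970 and 1.67 per 100 kb, a log2 ratio of 0.79 (0.37 to 1.21). The bodies of the other genes held 684 and 1473, or 2.34 and 5.04 per 100 kb, a log2 ratio of 1.11 (0.97 to 1.24). At equal numbers of intervals in the lists, the zinc finger bodies held 76 and 73, and the others 684 and 1011. The summit was intronic for 73 of 76 distinct intervals in NC and 121 of 128 in KMT2D-KD.

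The body intervals were spread over many members, and a few members held several each. ZNF675, whose product TIZ is known to bind the signalling protein TRAF6, held 11 in NC and 13 in KMT2D-KD, the most of any member in each. In NC 9 of them, with 6877 bases, stood within 26.8 kb at chr19:23534787-23561620, and in KMT2D-KD 11 of them, with 9354 bases, within 26.9 kb at chr19:23534566-23561429. This stretch lies 126 to 152 kb from the 5′ end, in introns of the 2 longest of 9 annotated transcripts and outside the canonical one. NC folds there were 3.78 to 6.50 and KMT2D-KD folds 3.04 to 8.35, with a highest −log10 q of 8.55 and 13.1, above any interval in the 5 kb windows. The stretch was thus dense in both libraries, and its assignment to ZNF675 rests on those long transcripts.

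ZNF507 held 3 NC intervals 26.3 to 28.9 kb into the gene (fold 4.04 to 6.31) and 4 in KMT2D-KD at 25.1 to 28.7 kb (4.17 to 7.81). ZNF254 held 6 and 4 body intervals, the strongest 20.1 and 20.3 kb in, at fold 5.35 in NC and 6.63 in KMT2D-KD. Both of these lie in 1 of 8 annotated transcripts and outside the canonical one. ZNF98 held 3 and 8. ZNF331 held none in NC and 6 in KMT2D-KD, of which 5 stood 21.2 to 28.0 kb from the first start with folds of 3.29 to 5.47. Of these 5 genes ZNF331 alone had no interval in NC. ZNF20 went from 4 to 2 intervals 26.7 to 29.5 kb in, where the readthrough gene ENSG00000286132 overlaps it. Of body intervals over 5 kb from the first start, 11 of 43 in NC and 23 of 63 in KMT2D-KD were within 5 kb of the start of another transcript of the same gene. Outside the canonical transcript lay 25 of the 43 and 28 of the 63, with all those of ZNF98 and ZNF20 among them.

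**Figure D5:**
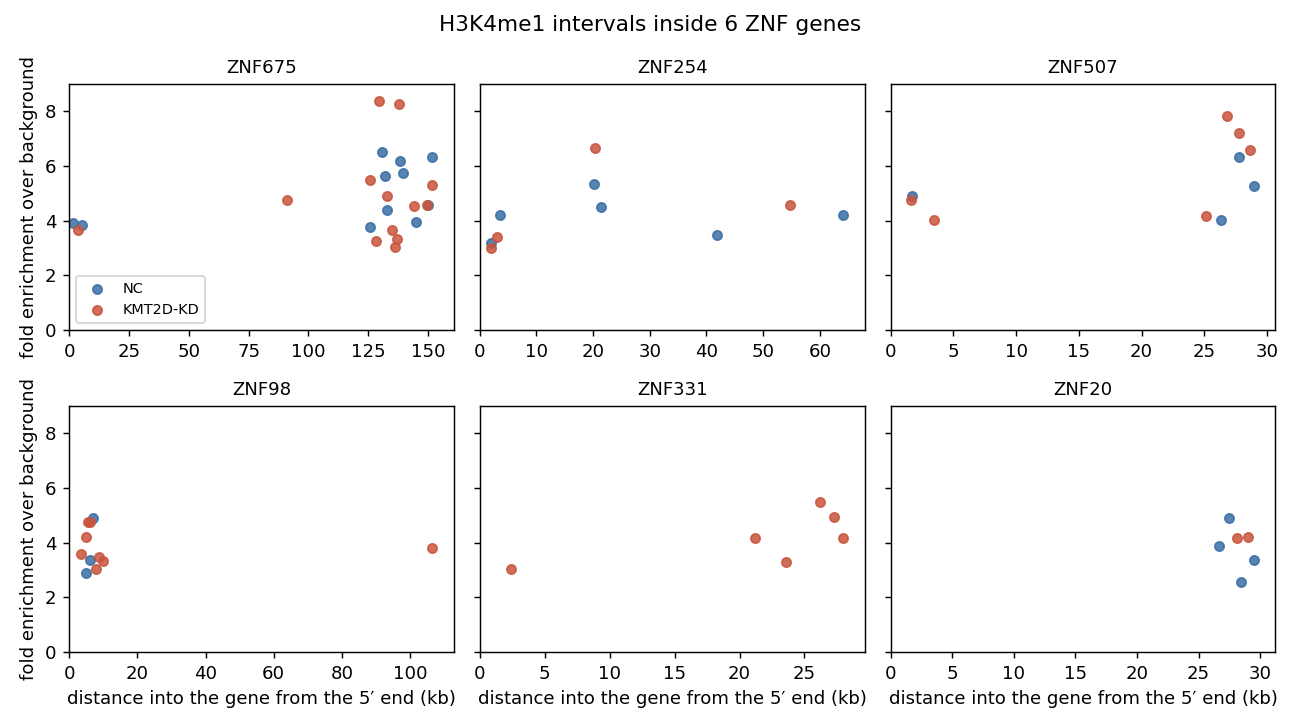
Fold enrichment over background (y axis) of each H3K4me1 interval in the bodies of ZNF675, ZNF254, ZNF507, ZNF98, ZNF331 and ZNF20 against its distance from the 5′ end (x axis, kb; the scale differs between panels), blue for NC and red for KMT2D-KD. ZNF675 has a dense group at 126 to 152 kb in both libraries, reaching fold 6.50 in NC and 8.35 in KMT2D-KD, and ZNF331 has KMT2D-KD points alone.

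The largest coding exons rarely overlapped an H3K4me1 interval, at members and at the other genes alike. That this exon holds the fingers was not checked gene by gene. The largest coding exon of each member, with a median length of 1546 bases and 385 kb in all, overlapped an interval in 1 of 246 genes in NC (0.407%) and in 0 of 246 in KMT2D-KD, for which the exact upper limit is 1.49%. The 1 gene was ZNF582, at chr19:56384527-56384744 with fold 4.56 and 12 fragments. Among the other genes 3 and 5 of 1230 largest coding exons overlapped one (0.244% and 0.407%), in 628 kb in all. The shares at members were close to these. A median of 99.8% of the 50-base words in these exons of the members occurred once in the genome, with a lowest value of 30.4% and a median of 89.6% in the run ZNF101 to ZNF254, and the part of read placement in these numbers was not tested.

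The genes of the repression machinery that KRAB proteins use were listed separately, as 25 genes on many chromosomes. An interval lay within 5 kb of the start of 11 of them in NC and 15 in KMT2D-KD, 8 in both, 7 in KMT2D-KD alone and 3 in NC alone. Over all protein-coding genes of the genome the shares were 30.2% in NC, 42.9% in KMT2D-KD, 16.2% in KMT2D-KD alone and 3.51% in NC alone. With 25 genes no difference from these shares was tested. Those in both were CBX1, CHD3, DAXX, DNMT3B, EHMT1, HDAC1, PPHLN1 and SETDB1, the methyltransferase brought in by TRIM28. CBX5, which encodes HP1 alpha, CHD4, EHMT2, HDAC2, MPHOSPH8, SUV39H1 and SUV39H2 had one in KMT2D-KD alone, and ATRX, CBX3 and MORC2 in NC alone. TRIM28 itself had none in either library, nor had the maintenance methyltransferase DNMT1, DNMT3A, UHRF1, TASOR, ATF7IP or SMARCAD1. SETDB1 held 306 bases in NC at fold 3.79 and 578 in KMT2D-KD at fold 3.56. HDAC2 went from 0 to 1400 bases with fold 6.07, and CBX3 from 1215 bases with fold 4.89 to 0.

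None of the KMT2D or EBF2 intervals fell within 5 kb of a member's start or in its body. These lists were short, with 8 and 17 KMT2D intervals and 12 and 11 EBF2 intervals on the whole chromosome in NC and KMT2D-KD, and 3, 5, 3 and 4 of the other genes had one within 5 kb. With so few intervals the absence at members says little about binding there.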

How the data were processed

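ChIP-seq of H3K4me1, KMT2D and EBF2 in SW1990 cells gave 6 interval lists, and the H3K4me1 lists of NC and KMT2D-KD were compared. Per the submitters' processing notes the authors used BWA, MACS2, HOMER and hg38 (versions not given in the sources used here). In the deposited lists the fold is the ratio of fragments over background at the summit, the −log10 p-value and −log10 q-value are the caller's, and the score repeats the q-value. The deposited lists reach a q-value of 0.0497 in NC and 0.0498 in KMT2D-KD. Fragments at the summit were recovered from the fold and the p-value (tolerance 0.001 in −log10 p), with a median of 12 in either library.

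The 5′ end is that of the GENCODE release 44 gene record. An overlap of at least 1 base counted. Shares have exact Clopper-Pearson 95% intervals, ratios of numbers exact binomial ones and ratios of shares Katz intervals, all for counting error only. There was no test, since each condition had 1 library. Uniqueness is the share of 50-base words that occur once in hg38, alternate sequences left out. Fingers were counted in the translated canonical transcript. The genes, lists and tests were chosen with earlier results of these data known. Named were 20 members by role, the 5 with the highest −log10 q per list, the 6 largest increases and decreases of covered bases and the 3 with most body intervals per list. The summit sequence of 1 named member is not reported here. Scripts were tested on simulated data and used Python 3.11.15, numpy 2.4.6, pandas 2.3.3, scipy 1.17.1 and matplotlib 3.10.9.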

Additional observations from a re-analysis of the deposited data

How the results depend on the processing

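The 6 log2 ratios of zinc finger and other genes were recomputed in 52 alternatives, of which 36 stayed inside the 95% interval of the reported value, 15 lay outside it and 1 turned its sign. With both lists cut to an equal number of intervals, the log2 ratio of KMT2D-KD to NC became 0.00 for zinc finger genes within 5 kb, -0.058 for intervals in their bodies (the 1 that turned), 0.49 for other genes within 5 kb and 0.56 for intervals in their bodies, and the log2 ratio of shares in KMT2D-KD became -1.11. At a −log10 q of at least 5, the ratios of KMT2D-KD to NC became 2.70 for zinc finger genes (2 and 13 genes), 1.41 for other genes and 1.53 for bodies of other genes, and the ratios of shares -2.70 in NC and -1.41 in KMT2D-KD. With a 1 kb window the ratio for zinc finger genes became 2.14, and the ratios of shares -1.26 in NC and -0.24 in KMT2D-KD. The latter was -0.31 with a 2 kb window and -0.29 against other genes inside the runs. At a fold of at least 5 the ratio for bodies of other genes became 1.51. Leaving out the run ZNF101 to ZNF254, an alternative added after seeing the data, gave 1.14 within 5 kb and 1.11 in bodies. Requiring the summit inside, any transcript start or a window without a second 5′ end kept all values inside their intervals. The causes were not tested. No paired analysis was possible because each condition had 1 library, and for the same reason no replicate could be left out. Presence or absence rests on about 10 fragments, so weak H3K4me1 in either library would not have been detectable.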
